A study of Rattus norvegicus with 10 samples.

Results

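The cytochrome P450 family of distal colon epithelium was described as every gene row whose symbol begins with Cyp and a digit, leaving out Cyp51, Cyp24a1, Cyp27b1 and Cyp26b1. These were 78 of 23422 rows, with 77 different symbols because Cyp4f17 has 2 rows. Of the 78 rows, 57 had at least 1 read, 21 had none, and 29 passed the filter on low counts and were tested. The rule used symbols only and no measured value, but it was set with earlier results of these data known.

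P450 enzymes are heme proteins that insert an oxygen atom into their substrates. In the endoplasmic reticulum their electrons come from the reductase Por, with help from cytochrome b5. Families 1 to 3 mostly handle drugs, toxins and other foreign compounds, family 4 hydroxylates fatty acids and eicosanoids, and the higher-numbered families make or degrade sterols, bile acids, steroid hormones and retinoids. Gut epithelium is known as a site of P450 metabolism ahead of the liver, and several P450 genes are targets of nuclear receptors that bind bile acids or foreign compounds.

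One group was 5 male Wistar Munich rats given standard chow with 1% w/w sodium cholate, the salt of a primary bile acid, and the control group was 5 male Wistar Munich rats kept on the standard chow. The diets lasted 10 days and followed 3 days of acclimatization in metabolic cages. RNA came from distal colon epithelial cells shaken loose in a buffer with EDTA, which loosens the epithelial sheet. Of 12 rats, 6 per diet, the 5 per diet with the most concentrated RNA were sequenced, so the rats were not a random draw.

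Total counts ran from 14337356 to 45285762 per library. The first principal component, 46.8% of the variance, put cholate rats 8 and 11 and control rats 5 and 9 on one side and the other 6 rats, 3 per diet, on the other. Sides were taken by sign, and control rat 5 was intermediate, at -8.08. Cholate rats 8 and 11 and control rat 9 were at -79.6, -66.8 and -57.0, and the 6 rats at 26.7 to 46.4. Cholate rats 8 and 11 and control rat 9 also had the lowest total counts, at 18584910, 14337356 and 19883925. The part of depth in the first component was not tested. This component did not follow diet, and the loadings of genes on it had a rank correlation of 0.38 with coding length over the 12385 genes tested. Values are therefore also given among those 6 rats, where they change a call. This alternative was chosen after seeing the data. Epithelial markers (7 of 7 tested, such as Epcam) summed to 15664 to 22974 CPM in cholate rats and 12815 to 17954 CPM in control rats. Colonocyte markers summed to 6334 to 9993 CPM in cholate rats and 2858 to 4074 CPM in control rats. Of these 7, 3 rose (Car1, Car4 and Krt20) by the rule for calls given below. That rule called 1.10% of all genes tested higher and 2.12% lower. Goblet cell markers summed to 4658 to 21859 CPM in cholate rats and 5213 to 19560 CPM in control rats, and 1 of 6 rose (Spink4). Enteroendocrine markers summed to 289 to 541 CPM in cholate rats and 209 to 278 CPM in control rats, and 3 of 5 rose (Pyy, Gcg and Cck). Tuft cell markers summed to 18.3 to 37.4 CPM in cholate rats and 37.6 to 52.9 CPM in control rats, and none of the 3 was called by edgeR or DESeq2, with 1 at an unadjusted p under 0.05. Markers of smooth muscle summed to 8.17 to 13.5 CPM in cholate rats and 42.4 to 61.8 CPM in control rats, nearly all from Des and Myh11, while Acta2, Tagln and Actg2 each averaged at most 0.343 CPM in either diet. Endothelial markers summed to 0.759 to 3.45 CPM in cholate rats and 3.84 to 7.86 CPM in control rats. Des and the endothelial marker Vwf were called lower. Among small intestinal enterocyte and fibroblast markers none was called by edgeR, and DESeq2 called 2 and 1. Of 6 hepatocyte markers, Alb, Fgb and Ahsg had no reads in any rat, Tat and Ttr had at most 7 reads per diet, and Hp had 50 reads in cholate rats and 166 in control rats. In bulk RNA, fewer cells of a type and less RNA per cell cannot be told apart, and the part of cell composition in the differences below was not tested.

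The comparison asked which P450 genes differed in colon epithelium after the cholate diet. Of the 29 tested, 2 rose (Cyp4f1 and Cyp2d3) and 5 fell (Cyp2w1, Cyp2j4, Cyp2f4, Cyp2j3 and Cyp2j10). A call needed both an adjusted p below 0.01 and more than a 2-fold difference, as in the study. Of all 12385 genes tested, 3.21% were called, 1.10% higher and 2.12% lower. The values of cholate and control rats did not overlap for 12 of the 29, 4 higher (Cyp4f1, Cyp2d3, Cyp2c24 and Cyp20a1) and 8 lower (the 5 called genes, Cyp3a9, Cyp4f17 and Cyp4v3), against 13.1% of all genes tested, 6.30% higher and 6.80% lower. At an adjusted p under 0.05 and any fold, 13 of the 29 passed, 5 higher and 8 lower, against 13.8% of all genes. The median log2 change was -0.018 over the 29 and -0.014 over all genes tested and 14 of the 29 lay above 0 and 15 below. An unadjusted p under 0.05 was found for 19 of the 29, 7 higher and 12 lower, against 29.0% of all genes. The 19 include Cyp11a1 and Cyp2s1, which passed the filter on low counts through the diet where they were higher. DESeq2 called 10 of the 29, against 6.37% of all genes. Among the 6 rats, 3 P450 genes were called higher and 6 lower, against 7.93% of all genes. The 6 lower include Cyp39a1, which is not among the 29 and passed the filter there through its reads in control rats. The 7 called genes belong to families 2 and 4, as do 21 of the 29 tested, not counting Cyp2r1, which was grouped with the sterol and bile acid genes. Levels are CPM, read counts scaled to library size by TMM. Each change is the log2 ratio of cholate to control, and its SE is approximate.

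**Figure D1:**
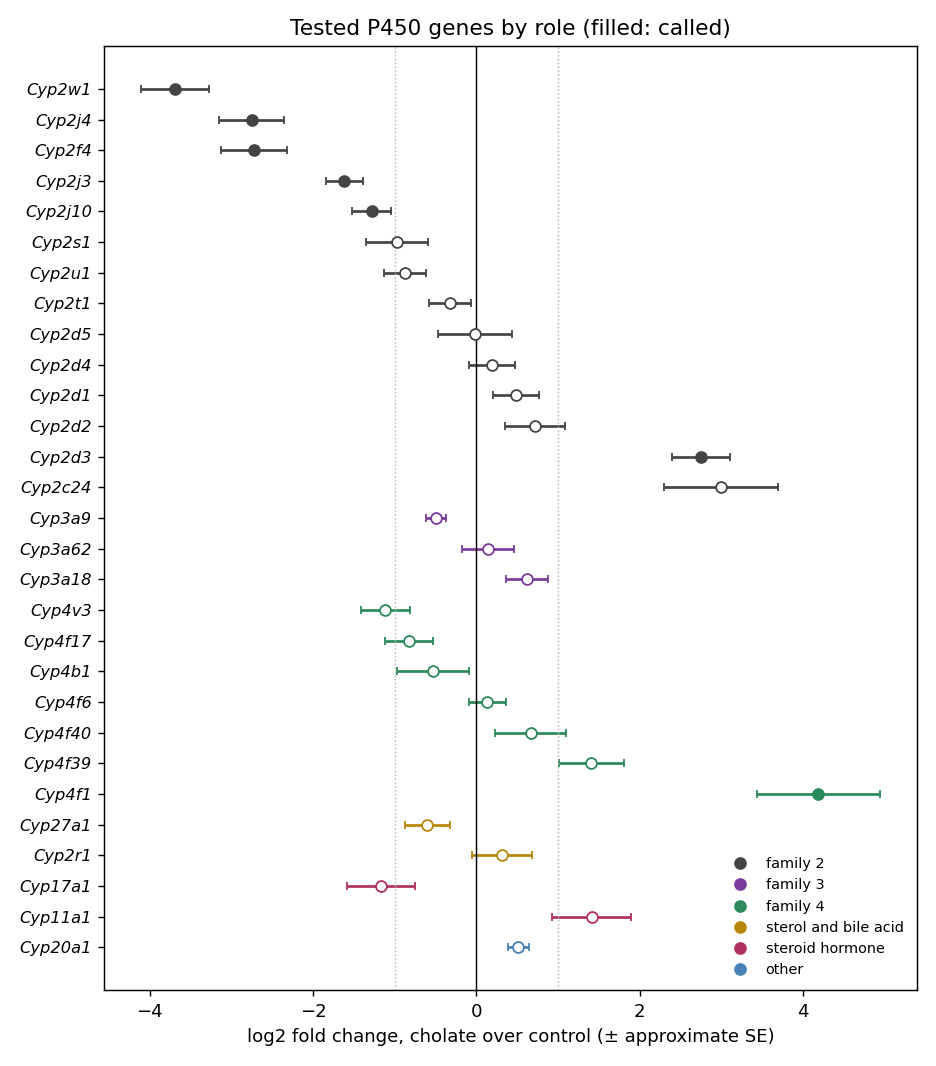
Log2 fold change of cholate over control (x axis) for the 29 tested P450 genes (y axis), coloured by role, with bars of 1 approximate SE; filled points were called and dotted lines mark a fold of 2. The called genes run from -3.69 for Cyp2w1 to 4.18 for Cyp4f1, and the Cyp2j genes all lie left of 0.

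The largest decrease was that of Cyp2w1 (GeneID 288517, Rnor_6.0 chromosome 12, 17382749 to 17387909, minus strand), a P450 whose human counterpart is known from fetal colon and colorectal tumours. Cyp2w1 had 4.95, 0.924, 2.7, 2.44 and 2.43 CPM in cholate rats 3, 4, 7, 8 and 11, against 44.5, 41.5, 24.8, 40.4 and 22 CPM in control rats 1, 2, 5, 6 and 9. Each cholate rat lay below each control rat, and cholate rat 4 was the lowest of all. Cyp2w1 fell 12.9-fold (log2 change -3.69, SE 0.41, adjusted p = 0.000741), with a mean of 2.69 ± 1.44 CPM on cholate and 34.6 ± 10.4 CPM on control chow (SD, n = 5 each). It was called whichever rat was left out.

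Cyp2f4 (GeneID 54246, Rnor_6.0 chromosome 1, 83933974 to 83947804, plus strand), of a subfamily known for activating naphthalene in the lung, had 5.65, 0.924, 3.78, 2.69 and 4.93 CPM in cholate rats 3, 4, 7, 8 and 11, against 30.1, 26.1, 21.1, 22.6 and 17.9 CPM in control rats 1, 2, 5, 6 and 9. The groups were far apart, and cholate rat 4 was again the lowest. Cyp2f4 fell 6.61-fold (log2 change -2.72, SE 0.41, adjusted p = 0.00268) and was called whichever rat was left out. Among the 6 rats on one side of the first component the change was -2.95, with an adjusted p of 0.0113 that misses the threshold. Its neighbour Cyp2t1, on the same strand of chromosome 1, had 66.2 ± 24.4 CPM on cholate and 82.4 ± 18.9 CPM on control chow, and the diets overlapped (log2 change -0.32, adjusted p = 0.463). The exons of Cyp2t1 overlap those of the antisense gene Egln2. Cyp2s1, which lies in the same region, averaged 0.465 ± 0.242 CPM on cholate and 0.879 ± 0.218 CPM on control chow (log2 change -0.97, adjusted p = 0.112). Of the other family 2 rows there, Cyp2a1, Cyp2a2, Cyp2b2, Cyp2b3, Cyp2b12 and Cyp2g1 had no reads, and Cyp2a3 and Cyp2b21 had 2 and 1 reads in all.

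All 3 tested members of the Cyp2j subfamily fell. CYP2J enzymes are known to epoxidize arachidonic acid and are expressed in rat intestine. Cyp2j4 (GeneID 65210, Rnor_6.0 chromosome 5, 119546458 to 119564843, minus strand) had 15.6, 2.55, 9.0, 10.1 and 11.8 CPM in cholate rats 3, 4, 7, 8 and 11, against 70.6, 85.1, 49.5, 51.9 and 72.5 CPM in control rats 1, 2, 5, 6 and 9. Cyp2j3 (GeneID 313375, Rnor_6.0 chromosome 5, 115196982 to 115222084, minus strand) had 29.1, 13, 24.4, 28 and 27.8 CPM in cholate rats 3, 4, 7, 8 and 11, against 83.9, 95.3, 62.3, 68 and 66.2 CPM in control rats 1, 2, 5, 6 and 9. Cyp2j10 (GeneID 313373, Rnor_6.0 chromosome 5, 115067847 to 115101961, minus strand) had 1.66, 1.36, 1.9, 2.5 and 2.73 CPM in cholate rats 3, 4, 7, 8 and 11, against 5.33, 5.29, 4.48, 3.97 and 5.39 CPM in control rats 1, 2, 5, 6 and 9. In each of the 3 genes the highest cholate rat stood below the lowest control rat, and cholate rat 4 was the lowest. Cyp2j4 fell 6.73-fold (log2 change -2.75, SE 0.40, adjusted p = 0.00226), Cyp2j3 3.07-fold (log2 change -1.62, SE 0.23, adjusted p = 0.00196) and Cyp2j10 2.43-fold (log2 change -1.28, SE 0.24, adjusted p = 0.00695). The fourth row, Cyp2j16, had no reads.

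Cyp2j3 and Cyp2j4 were called whichever rat was left out. The call of Cyp2j10 was lost without cholate rat 3, 4 or 7 or control rat 1, 2, 5 or 6, with log2 changes of -1.35 to -1.16 and adjusted p values of 0.0114 to 0.0223. Among the 6 rats, Cyp2j4 changed by -2.94 at an adjusted p of 0.0187, short of the threshold. The sources used here do not say how reads shared by close paralogs were counted, so the reads of the subfamily were also summed. The sum ran from 16.9 to 46.4 CPM in cholate rats and from 116 to 186 CPM in control rats, and it fell too (log2 change -2.01, adjusted p = 0.00129). Cyp2j4 made up 15.1 to 33.7% of that sum in cholate rats and 41.9 to 50.3% in control rats, ranges that do not overlap.

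The 250 bases before the start of these 3 genes are shown because the genes fell together. They are from RefSeq on GRCr8, a newer build than that of the counts, 5′ to 3′ in the direction of the gene. Capitals would mark any of the 5 motifs searched on both strands, and these 3 windows hold none.
Cyp2j4 (GRCr8 chr5:116323043-116323292, minus strand): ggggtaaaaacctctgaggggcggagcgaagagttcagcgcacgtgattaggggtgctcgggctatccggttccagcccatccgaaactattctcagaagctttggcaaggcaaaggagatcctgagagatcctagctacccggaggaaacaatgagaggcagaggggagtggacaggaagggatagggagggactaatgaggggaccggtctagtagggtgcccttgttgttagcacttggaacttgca
Cyp2j3 (GRCr8 chr5:116360500-116360749, minus strand): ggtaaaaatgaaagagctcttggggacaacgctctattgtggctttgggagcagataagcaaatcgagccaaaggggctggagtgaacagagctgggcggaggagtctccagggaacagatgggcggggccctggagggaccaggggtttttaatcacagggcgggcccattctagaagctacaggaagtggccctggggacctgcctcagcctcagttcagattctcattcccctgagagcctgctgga
Cyp2j10 (GRCr8 chr5:116110810-116111059, minus strand): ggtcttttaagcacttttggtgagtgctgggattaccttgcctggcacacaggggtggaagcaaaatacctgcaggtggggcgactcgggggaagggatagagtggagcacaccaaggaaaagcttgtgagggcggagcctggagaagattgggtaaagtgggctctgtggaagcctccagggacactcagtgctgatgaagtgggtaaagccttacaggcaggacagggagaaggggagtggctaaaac
The 3 windows were 49.7% to 51.5% identical in global alignments, within the 45.2% to 52.2% seen over all pairs of the 7 called genes. The motifs were GCGTG, the core of the aryl hydrocarbon receptor site, found in 25.9% of all 33469 RefSeq promoter windows of that length, AGGTCA, a nuclear receptor half-site (14.1%), its direct repeat with 1 base between (0.0508%), its inverted repeat with 1 base between (0.0269%) and TATAAA (12.9%). The half-site is part of both repeats. The half-site, the inverted repeat and TATAAA were chosen after the data were seen.

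**Figure D2:**
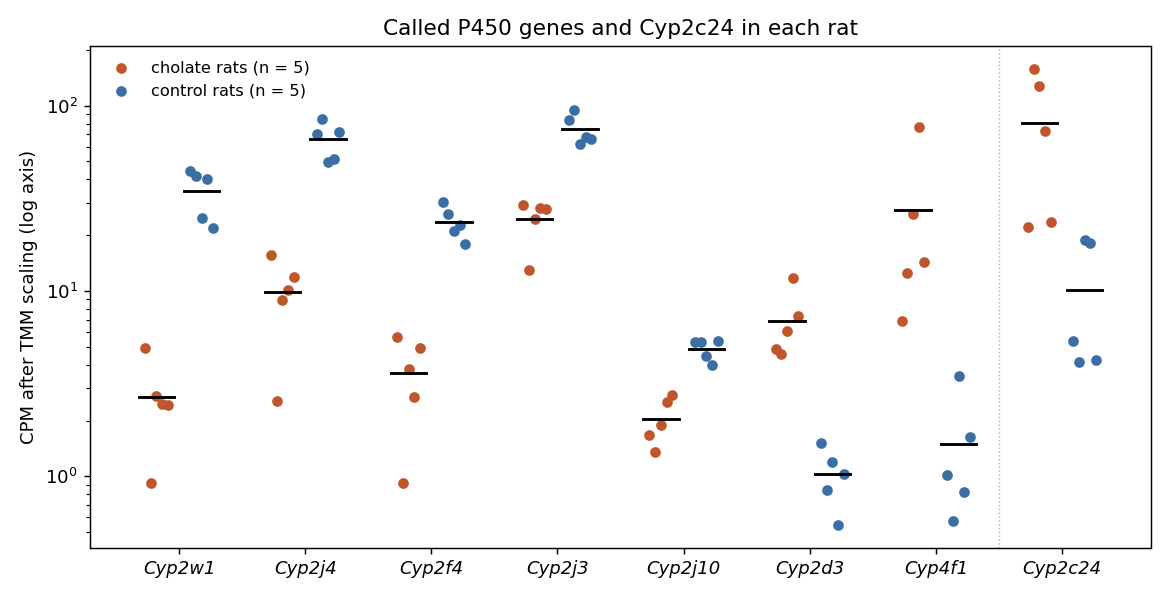
CPM after TMM scaling (y axis, log) in each of 5 cholate rats (left of each pair) and 5 control rats (right) for the 7 called P450 genes and, after the dotted line, Cyp2c24; black bars are means. In each called gene the 2 sets of points do not overlap, and cholate rat 4 is lowest for the 5 genes that fell.

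Cyp4f1 (GeneID 56266, Rnor_6.0 chromosome 7, 15179472 to 15191113, minus strand), a hydroxylase of leukotrienes in the rat, showed the largest increase. It had 6.9, 12.4, 26, 76.8 and 14.3 CPM in cholate rats 3, 4, 7, 8 and 11, against 1.02, 0.575, 3.47, 0.82 and 1.63 CPM in control rats 1, 2, 5, 6 and 9. The diets did not overlap, but the cholate rats differed among themselves, with rat 8 far above the rest. Cyp4f1 rose 18.2-fold (log2 change 4.18, SE 0.75, adjusted p = 0.00583), with a mean of 27.3 ± 28.5 CPM on cholate and 1.5 ± 1.17 CPM on control chow (SD, n = 5 each). Without cholate rat 8 the change was 3.32 and still called (adjusted p = 0.00556). The call was lost without cholate rat 4 or 7 or control rat 1, 2, 6 or 9, with log2 changes of 3.98 to 4.37 and adjusted p values of 0.0104 to 0.022.

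Other members of the Cyp4f subfamily did not pass the test. Cyp4f39, whose mouse and human counterparts hydroxylate very long fatty acids of skin ceramides, had 6.04 ± 2.99 CPM on cholate and 2.3 ± 0.957 CPM on control chow (log2 change 1.41, adjusted p = 0.0387). It passed both thresholds by DESeq2 (adjusted p = 0.00426) and among the 6 rats (1.99, adjusted p = 0.00957). Those fits called 6.37% and 7.93% of all genes. Cyp4f40 had 20.7 ± 9.09 CPM on cholate and 13.1 ± 8.26 CPM on control chow (log2 change 0.66, adjusted p = 0.352), and Cyp4f6 had 55.4 ± 18.2 CPM on cholate and 50.4 ± 10.7 CPM on control chow (log2 change 0.14, adjusted p = 0.758). Cyp4f17 went the other way, with 3.14 ± 0.961 CPM on cholate and 5.55 ± 1.82 CPM on control chow and no overlap between diets (log2 change -0.83, adjusted p = 0.0852). Cyp4f4, Cyp4f5, Cyp4f18 and Cyp4f37 had at most 5 reads per diet. Summed over the subfamily, the reads changed by 0.63 (adjusted p = 0.089). That sum is mostly of other genes and cannot show how reads were divided among paralogs. The call rests on Cyp4f1 being told apart from its paralogs, which was not tested. Cyp4f1 made up 7.9 to 42% of the subfamily CPM in cholate rats and 0.899 to 4.81% in control rats.

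Cyp2d3 (GeneID 24303, Rnor_6.0 chromosome 7, 123634400 to 123638757, minus strand) lies in a row of 5 neighbouring Cyp2d genes on the minus strand of chromosome 7. CYP2D enzymes are known for drug metabolism. Cyp2d3 had 4.87, 4.58, 6.1, 11.8 and 7.29 CPM in cholate rats 3, 4, 7, 8 and 11, against 1.51, 0.843, 1.19, 0.547 and 1.03 CPM in control rats 1, 2, 5, 6 and 9. The lowest cholate rat stood well above the highest control rat. Cyp2d3 rose 6.72-fold (log2 change 2.75, SE 0.36, adjusted p = 0.0014) and was called whichever rat was left out. Its neighbours did not pass the test. Cyp2d1 had 96 ± 47.6 CPM on cholate and 68.7 ± 8.69 CPM on control chow (log2 change 0.48, adjusted p = 0.289), Cyp2d2 4.95 ± 2.37 CPM on cholate and 2.98 ± 0.395 CPM on control chow (log2 change 0.72, adjusted p = 0.225), Cyp2d4 24.1 ± 10 CPM on cholate and 21 ± 4.37 CPM on control chow (log2 change 0.19, adjusted p = 0.712) and Cyp2d5 13.4 ± 8.82 CPM on cholate and 13.5 ± 2.96 CPM on control chow (log2 change -0.018, adjusted p = 0.984). Cyp2d3 was a small part of the subfamily, 4.54 to 5.77% of its CPM in cholate rats and 0.62 to 1.27% in control rats. The subfamily sum changed by 0.44 (adjusted p = 0.317), and Cyp2d3 is too small a part of it for its rise to show there. This call too depends on how reads were divided among paralogs, which was not tested.

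**Figure D3:**
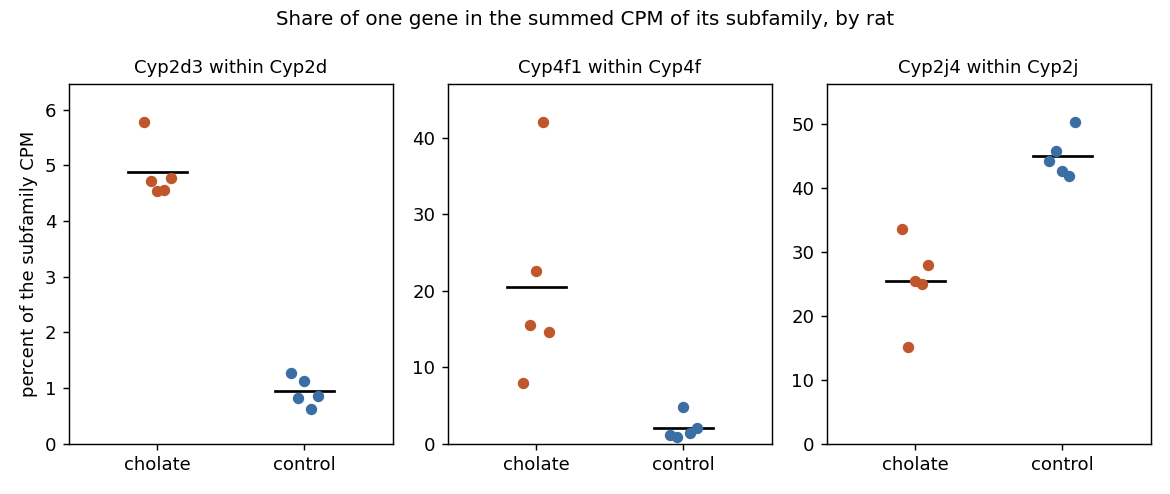
Share of Cyp2d3, Cyp4f1 and Cyp2j4 in the summed CPM of their subfamilies (y axis, percent) in each of 5 cholate rats (left) and 5 control rats (right), with black bars at the means. The shares of Cyp2d3 and Cyp4f1 are higher in each cholate rat than in each control rat, and that of Cyp2j4 is lower.

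The windows before Cyp2w1 and Cyp4f1, the genes with the largest decrease and increase, each hold the GCGTG core once on the opposite strand, where it reads CACGC (capitals), beginning 65 bases before the start of Cyp2w1 and 72 bases before that of Cyp4f1.
Cyp2w1 (GRCr8 chr12:20410283-20410532, minus strand): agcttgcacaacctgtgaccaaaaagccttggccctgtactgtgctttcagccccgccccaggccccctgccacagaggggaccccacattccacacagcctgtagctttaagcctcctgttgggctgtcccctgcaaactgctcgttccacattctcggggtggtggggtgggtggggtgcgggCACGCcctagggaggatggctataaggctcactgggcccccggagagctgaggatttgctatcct
Cyp4f1 (GRCr8 chr7:12672554-12672803, minus strand): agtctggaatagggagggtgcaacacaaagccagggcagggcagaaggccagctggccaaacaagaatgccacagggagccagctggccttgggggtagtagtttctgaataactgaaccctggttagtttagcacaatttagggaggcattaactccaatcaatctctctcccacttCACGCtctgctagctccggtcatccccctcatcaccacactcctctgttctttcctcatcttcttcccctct
Of the 26 tested members with a window, 9 hold GCGTG, 2 of them among the 7 called. The half-site stands in 6 of the 26 and in none of the 7. Neither repeat occurs in the 26. TATAAA stands in 6, of which Cyp2d3 is the called one. A match of letters is no evidence of binding.

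Cyp2c24 missed the call. It had 22.2, 158, 128, 73.1 and 23.5 CPM in cholate rats 3, 4, 7, 8 and 11, against 5.36, 4.14, 18.8, 18.1 and 4.25 CPM in control rats 1, 2, 5, 6 and 9. The diets did not overlap, but cholate rats 3 and 11 were close to control rats 5 and 6. The difference was 2.99 (SE 0.69, adjusted p = 0.0173), past the fold but not the p threshold, and DESeq2 called it (adjusted p = 2.72e-05). When each of the 10 rats was left out in turn, its change ran from 2.60 to 3.35 and the adjusted p from 0.0139 to 0.0525. Of the other Cyp2c rows by symbol, Cyp2c11, Cyp2c12, Cyp2c22 and Cyp2c23 had at most 7 reads per diet, and Cyp2c6v1, Cyp2c7 and Cyp2c13 had none. Outside the rule, LOC100361492, named Cyp2c55 in a newer RefSeq gene table, had 9490 reads in cholate rats and 1780 in control rats. It was called higher (log2 change 2.19, adjusted p = 0.00204). How reads were divided between it and Cyp2c24 was not tested. Cyp2u1, a hydroxylase of long-chain fatty acids in humans, had 2.94 ± 0.923 CPM on cholate and 5.37 ± 1.2 CPM on control chow (log2 change -0.87, adjusted p = 0.0446), short of both thresholds. Among the 6 rats, where 7.93% of all genes were called, Cyp2u1 passed both (log2 change -1.09, adjusted p = 0.00515). Cyp2b1, a phenobarbital-inducible enzyme of rat liver, had 19 reads in cholate rats and 44 in control rats in all and was not tested, and Cyp2e1 had 1 read, in a cholate rat.

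Cyp3a9, of the CYP3A subfamily that oxidizes steroids, bile acids and many drugs, was by far the highest member per coding length, at 354 CPM per kilobase on cholate and 499 on control chow, and ranked 305 among the 12385 genes tested. It had 442, 592, 513, 533 and 519 CPM in cholate rats 3, 4, 7, 8 and 11, against 689, 880.4, 633, 712 and 756 CPM in control rats 1, 2, 5, 6 and 9. Each cholate rat was below each control rat, and the difference was small (log2 change -0.50, SE 0.12, adjusted p = 0.0209), within the fold limit. Per length it made up 37.8 to 52.6% of the summed P450 level in cholate rats and 47.9 to 57.7% in control rats, ranges that overlap. Cyp3a62, a CYP3A enzyme of rat gut, had 48.7, 76.8, 96, 103 and 114 CPM in cholate rats 3, 4, 7, 8 and 11, against 83.2, 32, 103, 72 and 106 CPM in control rats 1, 2, 5, 6 and 9. Control rat 2 was the lowest of all 10 and the diets overlapped (log2 change 0.14, adjusted p = 0.819). Its exons overlap an antisense gene, LOC102554019. Cyp3a18 had 5.99 ± 1.57 CPM on cholate and 3.89 ± 1.07 CPM on control chow (log2 change 0.62, adjusted p = 0.14), Cyp3a71-ps had 2 reads in cholate rats, and Cyp3a2, Cyp3a23/3a1 and Cyp3a73 had none. None of the 3 tested family 3 genes was called by edgeR or by DESeq2, and 2 had an unadjusted p under 0.05 (edgeR), as did 29.0% of all genes.

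**Figure D4:**
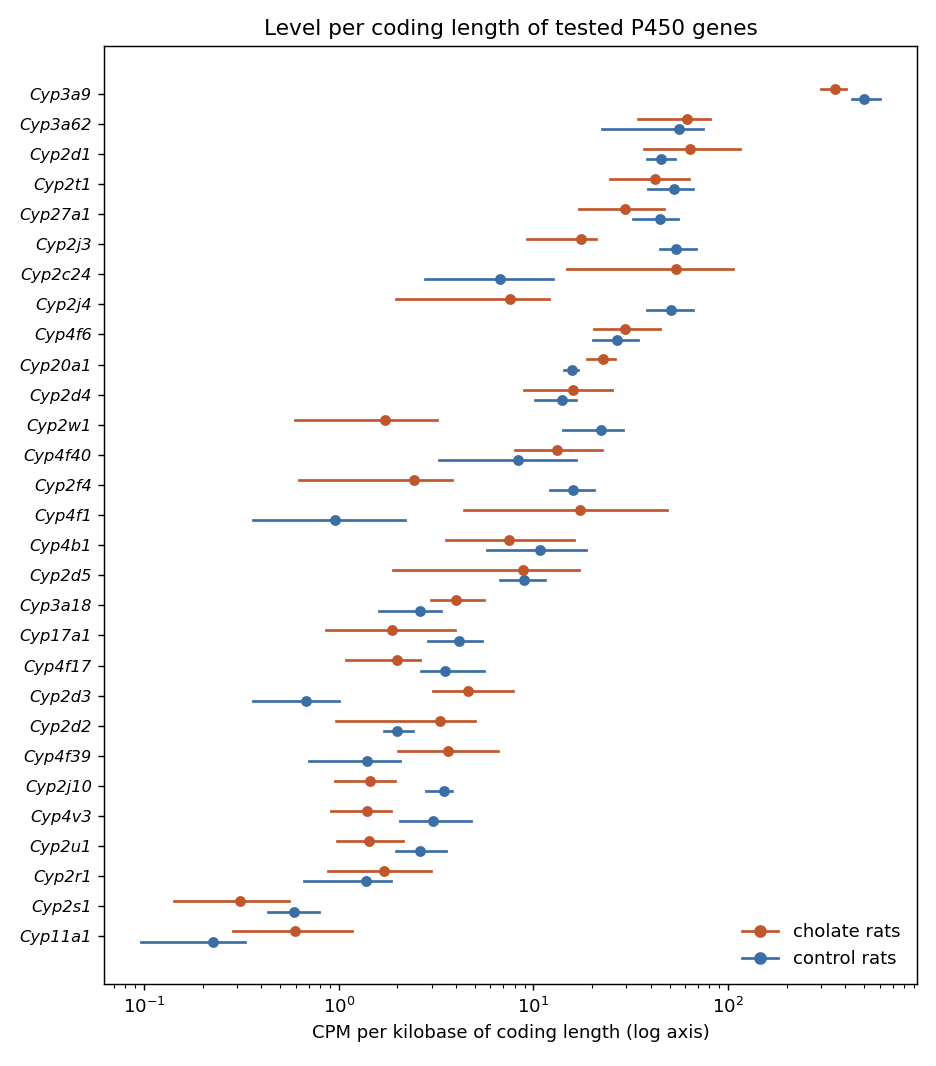
CPM per kilobase of coding length (x axis, log) of the 29 tested P450 genes in cholate rats (upper line of each pair) and control rats (lower line); points are means of 5 rats and lines run from the lowest to the highest rat. Cyp3a9 stands alone at the top, and the lines of Cyp2j4, Cyp2w1 and Cyp2f4 lie far to the left in cholate rats.

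The members next highest per length were Cyp3a62, Cyp2d1, Cyp2t1, Cyp27a1 and Cyp2j3. Cyp3a62 had 61.6 CPM per kilobase on cholate and 55.7 on control chow, and Cyp2d1 63.4 CPM per kilobase on cholate and 45.4 on control chow. Their ranges over rats overlapped in both diets. Cyp2d1 had 55.9, 60.6, 93, 175 and 95.7 CPM in cholate rats 3, 4, 7, 8 and 11, against 71.7, 63.9, 69.2, 57.8 and 81 CPM in control rats 1, 2, 5, 6 and 9, with cholate rat 8 far above the others. Cyp2t1 had 63.4, 38.9, 48.2, 99.1 and 81.2 CPM in cholate rats 3, 4, 7, 8 and 11, against 71.7, 74.8, 104, 61 and 101 CPM in control rats 1, 2, 5, 6 and 9. Cholate rats 4 and 7 lay below all control rats for Cyp2t1, and the other 3 lay among them. Cyp27a1 had 35.8, 27.4, 38.3, 75.2 and 60.7 CPM in cholate rats 3, 4, 7, 8 and 11, against 83.6, 65.2, 70.2, 52.1 and 88.2 CPM in control rats 1, 2, 5, 6 and 9. Cyp2j3 had 17.5 CPM per kilobase on cholate and 53.7 on control chow.

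Of family 4 genes outside Cyp4f, Cyp4v3, whose human counterpart hydroxylates medium-chain fatty acids, had 2.58, 2.07, 2.95, 1.44 and 1.97 CPM in cholate rats 3, 4, 7, 8 and 11, against 7.5, 3.3, 3.99, 5.93 and 3.27 CPM in control rats 1, 2, 5, 6 and 9. The diets did not overlap, and the change (log2 change -1.11, SE 0.30, adjusted p = 0.0338) passed the fold but not the p threshold. Cyp4v3 passed both by DESeq2 (adjusted p = 0.00515), which called 6.37% of all genes. It also did with the side of the first component as a second term (log2 change -1.12, adjusted p = 0.00451). That model was chosen after seeing the data, and its share of all genes called was not taken. Cyp4b1 had 11.5 ± 7.67 CPM on cholate and 16.6 ± 8.32 CPM on control chow (log2 change -0.54, adjusted p = 0.472). The Cyp4a genes, hydroxylases of fatty acids that are targets of PPAR alpha in rat liver, had too few reads to be tested. Cyp4a2 had 2 reads in cholate rats and 34 in control rats, and Cyp4a3 had 6 reads in cholate rats and 17 in control rats. With no filter on low counts, Cyp4a2 had an adjusted p of 0.0193 and was not called. Cyp4x1 had 10 reads in cholate rats and 46 in control rats.

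Genes of bile acid synthesis were low. Cyp7a1, the rate-limiting enzyme of the classical pathway in liver, had no reads in any rat, which allows up to 3 counts in a library, or 0.0616 to 0.228 CPM (counting error only). Cyp7b1 had 2 reads, both from cholate rats. Cyp8b1, the enzyme that turns the pathway towards cholic acid, had 40 reads in cholate rats and 59 in control rats. Cyp39a1, an oxysterol hydroxylase, had 6 reads in cholate rats and 58 in control rats, with control rat 9 at 0. It did not pass the filter on low counts. The mitochondrial sterol hydroxylase Cyp27a1 was the exception in level, at 47.5 ± 19.8 CPM on cholate and 71.9 ± 14.5 CPM on control chow (log2 change -0.60, adjusted p = 0.17). Cyp46a1, the cholesterol hydroxylase of brain, had 36 reads in cholate rats and 9 in control rats. The exons of Cyp46a1 overlap those of Hhipl1 on the same strand, so these reads may not all be its own. Cyp2r1, which activates vitamin D in its first step, had 2.93 ± 1.36 CPM on cholate and 2.37 ± 0.866 CPM on control chow (log2 change 0.31, adjusted p = 0.634). Neither tested gene of this group was called by edgeR or DESeq2, and Cyp27a1 had an unadjusted p under 0.05, as did 29.0% of all genes.

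Among genes of steroid hormone synthesis, Cyp17a1 had 1.62, 2.01, 1.31, 3.32 and 6.0 CPM in cholate rats 3, 4, 7, 8 and 11, against 4.52, 6.28, 4.4, 7.99 and 8.27 CPM in control rats 1, 2, 5, 6 and 9. Cholate rats 8 and 11, which lay apart on the first component, were the highest of their group, and the diets overlapped (log2 change -1.17, adjusted p = 0.0864). The 6 rats leave out cholate rats 8 and 11. Among them, where 7.93% of all genes were called, Cyp17a1 was called (log2 change -1.89, adjusted p = 0.00154). Cyp11a1, the first enzyme of steroid synthesis, was low, with 0.942 ± 0.613 CPM on cholate and 0.357 ± 0.144 CPM on control chow (log2 change 1.41, adjusted p = 0.0785), and its exons overlap those of the antisense gene Ccdc33. Cholate rats 3 and 4 held 50 and 64 of its 147 reads from cholate rats. Cyp11a1 passed the filter on low counts through its reads in cholate rats. Cyp21a1 had 7 reads in cholate rats and 5 in control rats, Cyp11b2, the aldosterone synthase, 0 reads in cholate rats and 2 in control rats, and Cyp11b3 and Cyp19a1 (aromatase) none. Of 2 tested genes, none was called by edgeR or DESeq2, and both had an unadjusted p under 0.05 (edgeR), as did 29.0% of all genes. Of the retinoic acid hydroxylases, Cyp26a1 had 2 reads in cholate rats and 0 in control rats, and Cyp26c1 none.

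Family 1 was almost silent. Cyp1a1, the standard target of the aryl hydrocarbon receptor, had 2 reads in cholate rats and 1 in control rats, Cyp1b1 had 3 reads in cholate rats and 0 in control rats, and Cyp1a2 had none. The receptor itself, Ahr, had 12 ± 8.64 CPM on cholate and 13.9 ± 8.4 CPM on control chow (log2 change -0.21, adjusted p = 0.875). Cyp20a1, a P450 with no known substrate, had 26.3, 28, 32.2, 36.4 and 34.5 CPM in cholate rats 3, 4, 7, 8 and 11, against 22.5, 19.9, 22.6, 21.4 and 23.6 CPM in control rats 1, 2, 5, 6 and 9. Each cholate rat was above each control rat, and the control rats were close together (log2 change 0.51, SE 0.13, adjusted p = 0.0268), within the fold limit.

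Genes linked to P450 enzymes but outside the rule by symbol were taken from 4 lists of 52 genes, all found and 47 tested. These were 8 redox partners (8 tested), 13 genes of heme synthesis and breakdown (12 tested), 19 regulators (18 tested) and 12 epoxide and eicosanoid enzymes (9 tested). In these lists 1 gene, of the heme list, rose and none fell by edgeR, against 7 higher and 4 lower at an unadjusted p under 0.05, and DESeq2 called 1 as well. Of all genes, 3.21% were called and 29.0% had an unadjusted p under 0.05. The median log2 change was -0.054, against -0.014 over all genes tested. The gene that rose was Hmox1, heme oxygenase, which breaks down heme, with 51.8 ± 32.5 CPM on cholate and 10.1 ± 2.73 CPM on control chow (log2 change 2.35, SE 0.46, adjusted p = 0.00852). Its call was lost without cholate rat 7, 8 or 11 or any 1 control rat, with log2 changes of 2.03 to 2.46 and adjusted p values of 0.0134 to 0.0258, and also by limma-voom (adjusted p = 0.0278) and among the 6 rats (log2 change 1.75, adjusted p = 0.081).

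Por, the reductase of microsomal P450 enzymes, had 175 ± 25.4 CPM on cholate and 152 ± 27.7 CPM on control chow (log2 change 0.20, adjusted p = 0.432). Cyb5a, microsomal cytochrome b5, had 247 ± 76 CPM on cholate and 226 ± 24.5 CPM on control chow (log2 change 0.13, adjusted p = 0.722). Cyb5b, the cytochrome b5 of the outer mitochondrial membrane, had 137 ± 10.8 CPM on cholate and 81.4 ± 5.6 CPM on control chow, without overlap between diets (log2 change 0.75, adjusted p = 0.00163), within the fold limit. Pgrmc2, a heme-binding membrane protein, had 20.9 ± 3.36 CPM on cholate and 32.6 ± 2.41 CPM on control chow, also without overlap (log2 change -0.64, adjusted p = 0.0137) and within the fold limit. Both were named after their values were seen. Fdx1, the ferredoxin of mitochondrial P450 enzymes, had 35.3 ± 12 CPM on cholate and 21.4 ± 2.89 CPM on control chow, without overlap between diets (log2 change 0.72, adjusted p = 0.0525). Alas1, the first enzyme of heme synthesis, had 292 ± 85.5 CPM on cholate and 256 ± 55 CPM on control chow (log2 change 0.19, adjusted p = 0.602). No difference in the main electron donor or in the first step of heme synthesis passed the test. The xenobiotic receptor Nr1i2 had 74.5 ± 29.6 CPM on cholate and 83.3 ± 19.8 CPM on control chow (log2 change -0.16, adjusted p = 0.749), and the bile acid receptor Nr1h4 75.1 ± 19.2 CPM on cholate and 88.6 ± 10.5 CPM on control chow (log2 change -0.24, adjusted p = 0.413). Ephx1, an epoxide hydrolase that acts on P450 products, had 41.1 ± 9.44 CPM on cholate and 49.3 ± 8.4 CPM on control chow (log2 change -0.26, adjusted p = 0.381).

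**Figure D5:**
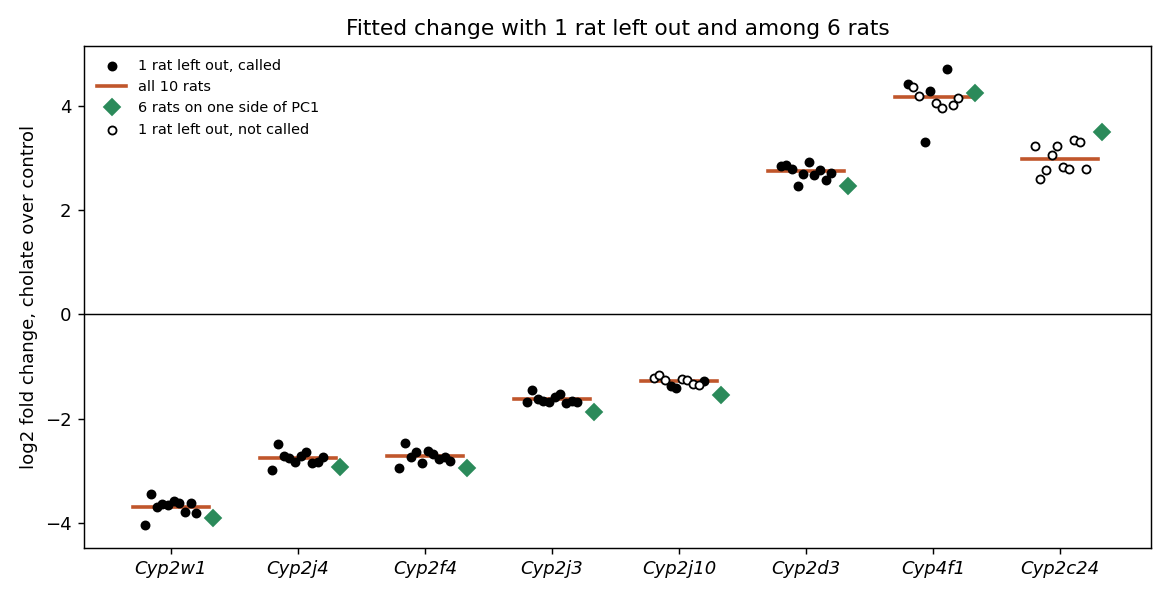
Fitted log2 fold change of cholate over control (y axis) for the 7 called genes and Cyp2c24, with 1 of 10 rats left out in turn (circles, filled where called), with all 10 rats (lines) and among the 6 rats on one side of the first principal component (diamonds). No point changes sign. The call was lost (open circles) in 7 of 10 fits for Cyp2j10 and 6 of 10 for Cyp4f1, with log2 changes still past the fold limit. Cyp2c24 was not called in any.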

How the data were processed

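Per the labels' protocols, stranded poly(A) libraries of 10 rats were sequenced on an Illumina HiSeq. The submitters' processing notes name bcl2fastq 1.8.4, BWA 0.7.12-r1039 (not a spliced aligner) and the build rn6. The sources used here do not name the counting program or say how it treated strand and shared reads. Raw counts as deposited were used for every comparison. The authors' deposited signal, CPM on TMM-scaled libraries from edgeR 3.16.2, served only as a check (the CPM computed here were 0.98 to 1.02 times the deposited ones). The deposited length equals the coding exons of the gene in all 23422 rows.

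Versions were edgeR 4.0.16, limma 3.58.1 and DESeq2 1.42.0 under R 4.3.3. After filterByExpr and TMM, diet was the only term of a robust quasi-likelihood F test in edgeR. The Benjamini-Hochberg adjustment ran over all 12385 genes tested. SE is the log2 change over the square root of F. The method was tested on simulated data. Alternatives were other scalings, no filter, DESeq2, limma-voom, leaving out each rat and summing reads per subfamily. Each rat is 1 library, and the rats of a diet are its replicates. Intervals for counts of 0 cover counting error only.

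The members and lists were chosen with earlier results of these data known. Named were called members, members with an adjusted p under 0.05, members averaging 1 CPM or more on cholate or on control chow, called genes of the 4 lists, and Por, Cyb5a, Fdx1, Alas1, Ahr, Nr1i2, Nr1h4 and Ephx1. Other members were named after their values were seen. Close paralogs were taken as rows of the same subfamily, and protein identity was not used here. Of the 78 rows, 62 had a RefSeq promoter.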

Additional observations from a re-analysis of the deposited data

Results flagged for a closer look

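The highest or lowest rat of each diet was compared with the other 4 for the 27 P450 genes and 9 other genes named by rule, 72 groups in all. In 4 groups the gap to the nearest rat, as a share of the whole range, exceeded the critical value of 0.71 for 5 samples. Chance flags about 1 in 20 such groups. Cyp4f1 had 76.8 CPM in cholate rat 8, against 6.9 to 26 CPM in the other cholate rats (share 0.727). Cyp4b1 was also highest in cholate rat 8, at 24.9 CPM against 5.46 to 9.8 CPM in the others (share 0.776). Cyp4f17 had 8.73 CPM in control rat 1 and 4.16 to 5.12 CPM in the other control rats (share 0.79). Alas1 had 350.0 CPM in control rat 9 and 210.3 to 251 CPM in the other control rats (share 0.711).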

How the results depend on the processing

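No paired analysis was made because the labels give no pairing or batch. The 7 P450 genes called were also called under library size scaling, RLE size factors, no filter on low counts and limma-voom. DESeq2 called 4 higher (also Cyp2c24 and Cyp4f39) and 6 lower (also Cyp4v3), against 6.37% of all genes. At an adjusted p under 0.05 and any fold, where 13.8% of all genes passed, 5 were higher and 8 lower. Leaving out 1 rat gave 1 to 2 higher and 4 to 6 lower, and the share of all genes called in those fits was not taken. Among the 6 rats, an alternative chosen after seeing the data, 3 were higher and 6 lower, against 7.93% of all genes called. The 6 lower there, and those without control rat 9, include Cyp39a1, which passed the filter on low counts through its reads in control rats. In the 4 lists of other genes, 1 was called, against 0 by limma-voom, 3 among the 6 rats (Nqo1, Pla2g4a and Ptgs2), 5 at an adjusted p under 0.05 and 0 to 1 on leaving out 1 rat.

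Some uncalled genes changed sign. Among the 6 rats the log2 change was -0.26 for Cyp2d4 and -0.10 for Cyb5a. Summed per subfamily it was -0.41 for Cyp3a62 and Cyp3a18, 0.44 for Cyp2d5 and 0.63 for Cyp4f17, since the sum is mostly of other genes. On leaving out 1 rat the range was -0.057 to 0.30 for Cyp3a62, -0.058 to 0.25 for Cyp4f6, -0.032 to 0.35 for Cyp2d4, -0.40 to 0.24 for Cyp2d5, -0.045 to 0.22 for Cyb5a and -0.56 to 0.073 for Ahr. The log2 change of other uncalled genes kept its sign but moved by over 1.5 times, with ranges of 0.15 (without cholate rat 8) to 0.63 (without cholate rat 3) for Cyp2d1, -0.51 (without cholate rat 8) to -0.17 (without cholate rat 4) for Cyp2t1, 0.38 (without cholate rat 7) to 1.07 (without control rat 1) for Cyp4f40, -1.02 (without cholate rat 8) to -0.24 (without control rat 1) for Cyp4b1, 0.016 (without cholate rat 7) to 0.48 (without cholate rat 11) for Cyp2r1, 0.11 (without control rat 1) to 0.24 (without control rat 9) for Por, 0.022 (without cholate rat 8) to 0.31 (without cholate rat 3) for Alas1, -0.37 (without cholate rat 8) to -0.049 (without cholate rat 3) for Nr1i2, -0.39 (without cholate rat 8) to -0.13 (without cholate rat 3) for Nr1h4 and -0.40 (without cholate rat 8) to -0.19 (without control rat 1) for Ephx1. The cause was not tested. Depth limits members under about 0.228 CPM, the level of 3 counts in the shallowest library.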

Other observations

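A further 9 gene rows carry a locus number as symbol and have a Cyp symbol in a newer RefSeq gene table (GRCr8), so the rule by symbol left them out. One of them, LOC100361492, was tested. It is named Cyp2c55 in that table and had 58.6 ± 22.7 CPM on cholate and 12.8 ± 4.48 CPM on control chow (log2 change 2.19, adjusted p = 0.00204 by edgeR). LOC100361492 rose, while Cyp2c24, of the same subfamily, missed the p threshold with a change of 2.99. The other 8 rows had no or few reads.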
